A study of Mus musculus with 4 samples.

Results

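Peaks deep inside genes are the FOXL2 binding sites that lie in the interior of a protein-coding gene, away from both of its ends. They were chosen by position alone: the peak centre had to lie inside a protein-coding gene, over 10 kb from every protein-coding gene border and over 1 kb from every border of a long noncoding RNA (lncRNA) gene, in the RefSeq annotation of GRCm38, the assembly that mm10 denotes. The rule took 1066 of the 11434 peaks on chromosomes 1 to 19 and X, or 9.32% (exact binomial 95% interval 8.80 to 9.87%), from a list of 11438. They lay in 871 host genes, and 5 of the peaks lay in a pair of overlapping hosts.

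The peaks came from ChIP-seq with an antibody to FOXL2 on fetal ovaries, labelled XX gonads, of the outbred CD1 mouse strain at E14.5. There were 2 ChIP samples (FOXL2_ChIP) and 2 samples of input, which is chromatin sequenced without an antibody. Each ChIP used a pool of many ovaries without the mesonephros, so a peak cannot be assigned to a cell type, and a peak list holds no marker levels with which the tissue label could be checked. The deposited values were peak positions in 1 list for both ChIP samples, each peak 300 bp wide, with no score, no value per replicate and no input signal. Depth is therefore unknown, no peak has a replicate error, and intervals below cover counting error only and treat peaks as independent.

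FOXL2, a forkhead protein, acts as a transcription factor in pregranulosa and granulosa cells, the somatic cells around the oocytes, and is known for keeping these cells from taking on features of the Sertoli cells of the testis. A factor bound in the interior of a gene may sit at an enhancer, which can act on the host or on another gene, or at an alternative promoter from which a shorter transcript of the host begins. Alternative promoters are common in mammalian genes, and many of them, like most promoters of widely used genes, are rich in CpG dinucleotides.

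Many of the peaks deep inside genes lay at annotated transcription starts inside their host, called internal starts here. Whether these starts are alternative promoters was not tested. Of 204 genes with a peak at an internal start, 91 also had their own start listed, so an internal start can be the only one annotated. A RefSeq table of transcription starts, on GRCm38.p6, gave the strand and at least 1 start for 694 of the 871 hosts, which held 855 of the peaks. Of these, 225 (26.3%, exact 95% interval 23.4 to 29.4%) were centred within 1 kb of a listed start of their own host, although windows of that size held only 2.55 Mb, or 0.449%, of the 567 Mb of deep sequence in genes of the table. Deep sequence means all positions that satisfy the rule. The density was 88.2 peaks per Mb in the windows and 1.12 per Mb in the rest, a ratio of 79.1 (exact 95% interval 67.6 to 92.3). Around protein-coding gene borders, within 1 kb, the density of all FOXL2 peaks was 92.5 per Mb. That class takes in both ends of genes, so it is not a density at starts alone. Among genes of known strand with deep sequence but no peak in it, 46.5% had a peak at the start and 0.789% at the end.

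The start windows of 4 hosts are examples of occupied internal starts, and in 3 of them a second internal start without a peak allows a comparison inside the same gene. They are not typical, since most peaks at internal starts were centred downstream. Here the centres lay at -285 (Runx1), -308 (Foxp1), -67 (Abr) and -176 bp (Pcgf5) from the start. Each occupied window also held more CpG than the median of occupied internal starts, 21. Each window runs 5′ to 3′ on the strand of the gene, from 250 bases before to 50 bases after a start, and capitals mark the bases that lie inside the FOXL2 peak. For Runx1, a transcription factor of the supporting cell lineage, the window is chr16:92697280-92697579 on the minus strand, at the well-known proximal promoter of the gene, with 35 CpG dinucleotides. For Foxp1, a forkhead factor, the occupied window is chr6:99028249-99028548 on the minus strand, with 44 CpG, and the unoccupied one is chr6:99266466-99266765, with 5. For Abr the occupied window is chr11:76494446-76494745 on the minus strand, with 25 CpG, and the unoccupied one is chr11:76577690-76577989, with 5. For Pcgf5, a Polycomb group gene, the occupied window is chr19:36409498-36409797 on the plus strand, with 35 CpG, and the unoccupied one is chr19:36378817-36379116, with 5.
Runx1, occupied: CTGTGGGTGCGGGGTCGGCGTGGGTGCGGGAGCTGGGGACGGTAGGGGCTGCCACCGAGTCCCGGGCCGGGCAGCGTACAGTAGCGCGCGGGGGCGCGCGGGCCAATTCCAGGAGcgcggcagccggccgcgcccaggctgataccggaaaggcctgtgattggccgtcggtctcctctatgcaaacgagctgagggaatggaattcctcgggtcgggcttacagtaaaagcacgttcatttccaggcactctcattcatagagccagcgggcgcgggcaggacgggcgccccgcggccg
Foxp1, occupied: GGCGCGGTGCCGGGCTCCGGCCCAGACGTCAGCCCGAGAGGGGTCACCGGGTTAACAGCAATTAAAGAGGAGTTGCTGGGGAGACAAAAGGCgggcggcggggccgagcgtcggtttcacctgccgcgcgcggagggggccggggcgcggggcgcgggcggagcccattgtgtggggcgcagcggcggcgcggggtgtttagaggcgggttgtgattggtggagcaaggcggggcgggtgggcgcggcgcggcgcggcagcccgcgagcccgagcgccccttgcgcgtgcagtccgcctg
Foxp1, no peak: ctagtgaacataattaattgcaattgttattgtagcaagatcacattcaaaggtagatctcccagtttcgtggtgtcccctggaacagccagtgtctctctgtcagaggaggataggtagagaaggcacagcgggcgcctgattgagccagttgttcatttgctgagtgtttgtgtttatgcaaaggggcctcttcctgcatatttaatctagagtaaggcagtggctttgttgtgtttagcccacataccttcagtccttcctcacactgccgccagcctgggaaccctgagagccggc
Abr, occupied: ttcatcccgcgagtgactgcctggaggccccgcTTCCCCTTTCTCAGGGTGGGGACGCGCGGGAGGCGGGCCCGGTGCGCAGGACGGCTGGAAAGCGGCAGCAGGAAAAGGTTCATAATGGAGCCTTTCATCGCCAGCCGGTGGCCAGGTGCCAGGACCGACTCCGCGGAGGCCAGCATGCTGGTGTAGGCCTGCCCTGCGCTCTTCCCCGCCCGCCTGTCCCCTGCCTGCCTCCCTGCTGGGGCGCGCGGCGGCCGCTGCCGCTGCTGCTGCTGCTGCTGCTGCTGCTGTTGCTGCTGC
Abr, no peak: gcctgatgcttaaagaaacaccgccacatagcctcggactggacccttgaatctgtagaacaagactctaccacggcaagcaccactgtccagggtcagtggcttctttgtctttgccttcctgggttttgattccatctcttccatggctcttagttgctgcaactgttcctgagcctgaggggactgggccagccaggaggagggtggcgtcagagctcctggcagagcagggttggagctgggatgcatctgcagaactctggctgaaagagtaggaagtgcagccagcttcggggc
Pcgf5, occupied: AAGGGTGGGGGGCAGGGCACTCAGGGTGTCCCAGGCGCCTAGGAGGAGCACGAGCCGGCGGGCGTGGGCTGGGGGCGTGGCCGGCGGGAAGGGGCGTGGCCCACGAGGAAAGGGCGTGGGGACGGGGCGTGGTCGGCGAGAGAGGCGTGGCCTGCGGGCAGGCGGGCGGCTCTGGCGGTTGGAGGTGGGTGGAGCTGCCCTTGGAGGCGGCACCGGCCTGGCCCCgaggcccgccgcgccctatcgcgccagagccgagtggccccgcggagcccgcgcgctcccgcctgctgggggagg
Pcgf5, no peak: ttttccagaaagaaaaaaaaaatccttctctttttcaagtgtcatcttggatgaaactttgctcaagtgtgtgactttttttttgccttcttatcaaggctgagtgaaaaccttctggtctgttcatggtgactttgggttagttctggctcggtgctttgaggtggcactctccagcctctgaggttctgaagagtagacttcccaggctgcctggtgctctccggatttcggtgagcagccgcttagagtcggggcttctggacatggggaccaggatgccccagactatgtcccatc

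In Runx1 the peak covered 115 bases of the window, 129 kb into the gene, and was the only peak of the gene to pass the rule. In Abr the peak covered 267 bases, at a start 129 kb into the gene, and in Pcgf5 it covered 225 bases, at a start 61.4 kb in. The nearest peak of any kind lay 6.72 kb from the unoccupied Abr start shown, 30.2 kb from that of Pcgf5 and 92.8 kb from that of Foxp1. In each of these 3 genes the occupied window shown was the one richer in CpG. Abr also had another occupied start, with 33 CpG, and unoccupied ones with 9 and 10. Other occupied internal starts belonged to the retinoic acid receptor gene Rarb (507 kb into the gene, 17 CpG), the planar cell polarity gene Prickle1 (76.7 kb, 20 CpG) and the histone demethylase gene Kdm2b (88.9 kb, 47 and 49 CpG at a pair of starts).

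Peaks at internal starts sat mostly just downstream of the start. Of the 225, 170 were centred downstream of the nearest listed start, the median offset was 146 bp, and the middle 50% of offsets ran from 10 to 292 bp. Among steps of 100 bp, the one that began 100 bp downstream held the most, 48 peaks, and the one just upstream of the start held 14. Within 300 bp of a start lay 150 of the peaks. Between 1 and 2 kb from a listed start lay 13 peaks, or 5.07 per Mb (exact Poisson 95% interval 2.70 to 8.67), between 2 and 5 kb lay 10, or 1.31 per Mb (0.628 to 2.41), and farther away the density was 1.09 per Mb (1.01 to 1.18). The crowding was thus mostly within 1 kb and reached, at a lower level, to 2 kb.

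**Figure D1:**
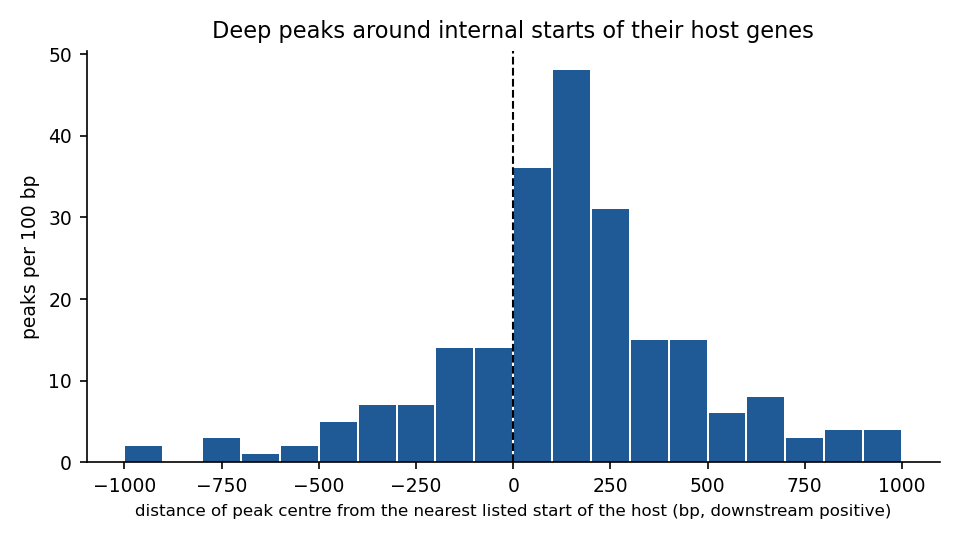
Number of peaks deep inside genes per 100 bp of distance from the nearest listed transcription start of the host gene, for the 225 peaks within 1 kb, with downstream positive and the dashed line at the start. The tallest bar, 48 peaks, covers 100 to 200 bp downstream.

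Counted by start rather than by peak, 248 of 1387 internal starts that themselves lay in deep sequence had a FOXL2 peak within 1 kb (17.9%, exact 95% interval 15.9 to 20.0%). They belonged to 204 of 1018 genes, and neighbouring starts can share a peak. At the gene's own border the share was 52.5%, with 3475 of 6617 starts of genes that have deep sequence. CpG content separated occupied from unoccupied internal starts. Windows of occupied internal starts held a median of 21 CpG in 300 bp (middle 50% from 13 to 32.2), unoccupied ones held 5 (3 to 8), and starts at the gene's own border held 20 (9 to 29). The median GC content was 64% for occupied and 50.3% for unoccupied internal starts.

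The share of internal starts with a peak was 2.29% with 0 to 4 CpG (12 of 525), 5.24% with 5 to 9 (22 of 420), 34% with 10 to 19 (73 of 215) and 62.1% with 20 or more (141 of 227). Starts at the gene's own border had peaks in 4.11, 17.0, 54.5 and 73.5% of cases in the same classes. The intervals of both kinds of start overlapped in the class poorest in CpG (1.19 to 3.96% and 2.94 to 5.58%) and did not overlap in the other classes. In the richest class they were 55.5 to 68.4% for internal starts and 72 to 75% for starts at the border. CpG-rich internal starts were thus occupied more often than CpG-poor ones, and less often than border starts of like CpG content in the 3 classes with at least 5 CpG.

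**Figure D2:**
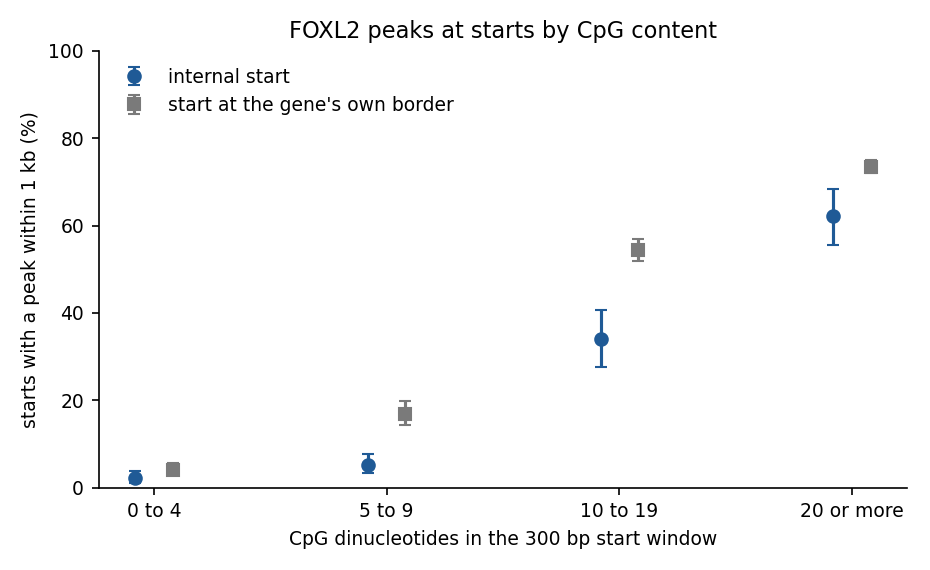
Share of transcription starts with a FOXL2 peak within 1 kb (%), by the number of CpG dinucleotides in the 300 bp window around the start, for internal starts (circles) and starts at the gene's own border (squares), with exact 95% binomial intervals. The share rises from 2.29 to 62.1% for internal starts and from 4.11 to 73.5% for border starts.

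Sequence matches in the start windows were counted on both strands. The forkhead core TGTTTAC occurred in 9 of the 248 occupied internal windows (3.63%, exact 95% interval 1.67 to 6.78%), in 42 of the 1139 unoccupied ones (3.69%) and in 3.65% of all 32851 windows of the table. In windows at the gene's own border the share was 2.71%. Zscan18 and Ptprr each gave overlapping windows with the same match, which were counted separately. Only in Adipor2 and Tmem14a did the letters lie inside the peak. In the other occupied windows they lay 293 to 705 bp from the peak centre. The letters AAGGTCA, the core bound by the nuclear receptor NR5A1 of the gonad, occurred in 7 occupied (2.82%, interval 1.14 to 5.73%) and 69 unoccupied windows (6.06%), against 4.72% of all windows and 2.99% of windows at the gene's own border. The letters CCGGAAG, bound by ETS family factors, occurred in 24 occupied (9.68%, interval 6.30 to 14.1%) and 30 unoccupied windows (2.63%), against 8.86% of all and 13.3% of windows at the gene's own border. Occupied windows were richer in GC and CpG than unoccupied ones, and CCGGAAG itself contains a CpG. The shares of occupied and unoccupied windows are therefore not compared at like composition. These windows overlap the peaks only in part, and the sequence under the other peaks was not analysed here. In Adipor2, which encodes an adiponectin receptor, the forkhead letters lay 1 bp from the peak centre, in a window with 41 CpG at chr6:119388685-119388984 on the minus strand. It is shown because it joins both features, and capitals here mark the forkhead letters.
Adipor2, occupied: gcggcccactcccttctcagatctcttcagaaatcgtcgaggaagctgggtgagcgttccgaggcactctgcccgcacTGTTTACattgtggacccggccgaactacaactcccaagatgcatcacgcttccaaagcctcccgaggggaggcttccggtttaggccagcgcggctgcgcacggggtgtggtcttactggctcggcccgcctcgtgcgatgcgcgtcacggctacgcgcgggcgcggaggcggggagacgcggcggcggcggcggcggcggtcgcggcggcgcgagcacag

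At the gene's own start, genes with an occupied internal start and other genes with internal starts had peaks in shares whose intervals overlapped. The gene's own start, its border at the 5′ end, had a peak within 1 kb in 68 of the 204 genes with an occupied internal start (33.3%, exact 95% interval 26.9 to 40.3%). It had one in 281 of the 814 genes whose internal starts were free of peaks (34.5%, 31.3 to 37.9%). Among genes whose own start is also listed in the table, the counts were 34 of 91 (37.4%, interval 27.4 to 48.1%) and 213 of 480 (44.4%, 39.9 to 48.9%).

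The 630 peaks away from listed starts, among those with a host in the table, had a density of 1.12 per Mb. In 6774 genes of the table with deep sequence but no listed start in it, the density was 1.08 per Mb, from 441 peaks in 407 Mb. Starts that the table does not list could not be taken out of either set. For comparison, all peaks deep inside genes had 1.47 per Mb (exact Poisson 95% interval 1.38 to 1.56), peaks between genes at 10 to 100 kb from a protein-coding border had 1.54 (1.44 to 1.64), and peaks between genes at over 100 kb had 0.422 (0.377 to 0.471). Sequence 1 to 10 kb from a border held 3.91 peaks per Mb. Deep positions within 1 kb of a lncRNA border, which the rule leaves out, held 84 peaks in 8.35 Mb, or 10.1 per Mb. The density of all peaks deep inside genes was 0.953 times that between genes at 10 to 100 kb, with overlapping intervals. These sets are unlike, since the intergenic one keeps sequence near lncRNA borders and the deep one holds the internal starts. Away from listed starts, in genes of the start table, the deep density was 1.12 per Mb, below the intergenic 1.54. No sequence near starts or lncRNA borders was taken out of the intergenic set, so these sets are unlike as well.

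Host genes were long. The median length was 132 kb for hosts (range 23.2 to 2241 kb) and 46.5 kb for genes with deep sequence and no such peak, and of 9819 genes with deep sequence 8.87% were hosts. The share of hosts rose with the length of deep sequence, from 1.83% of genes with under 20 kb of it to 11.5% at 50 to 100 kb, 30.1% at 200 to 500 kb and 38.4% over 500 kb (78 of 203). Per Mb the order was the reverse. The density was 2.22 peaks per Mb in genes with under 20 kb of deep sequence (exact 95% interval 1.74 to 2.78), 1.89 at 50 to 100 kb (1.65 to 2.16), 1.34 at 200 to 500 kb (1.18 to 1.51) and 0.734 over 500 kb (0.612 to 0.873). Without peaks and sequence within 1 kb of listed starts, the densities of the 5 classes up to 500 kb lay between 1.17 and 1.47 with overlapping intervals, and the longest genes still had 0.648 (0.533 to 0.779). Peaks at starts cannot be removed for hosts that are not in the start table. Among genes of the table alone, the densities away from listed starts were at most 1.37 in the 5 classes, with overlapping intervals, and 0.709 (0.575 to 0.865) in the longest genes.

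**Figure D3:**
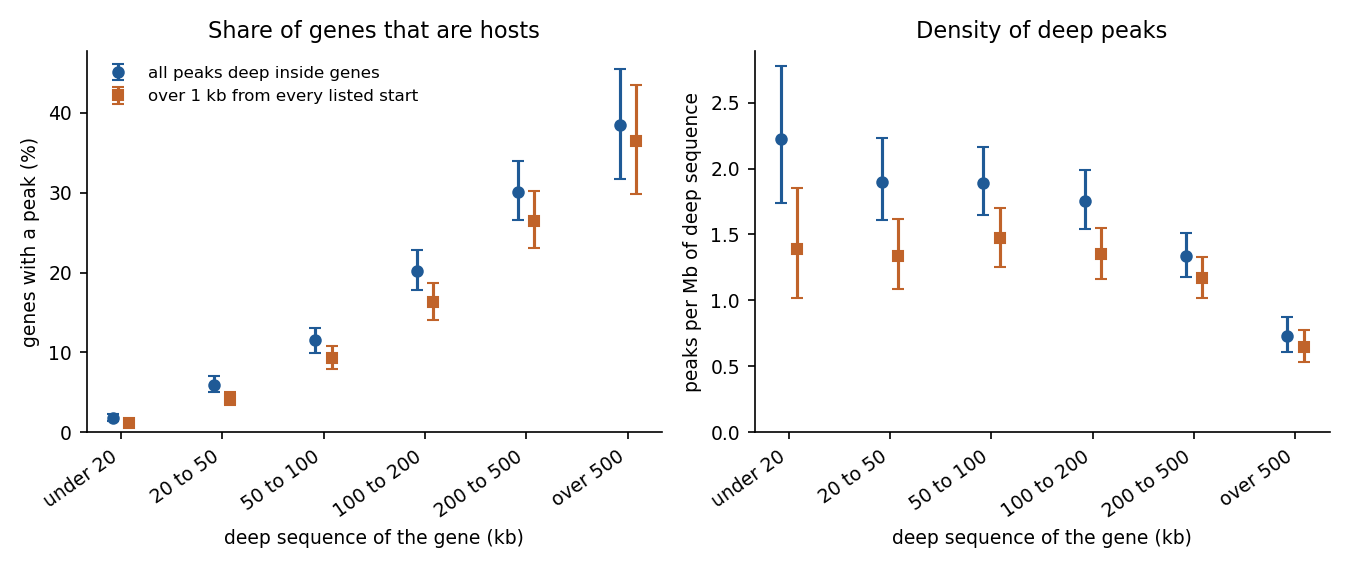
Share of genes that are hosts (left, %) and density of deep peaks per Mb of deep sequence (right), by the length of deep sequence in the gene, with exact 95% intervals, for all peaks (circles) and without sequence within 1 kb of listed starts of the host (squares). The share rises to 38.4% in the longest genes while the density falls to 0.734 per Mb.

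Along the gene, measured from the border at the 5′ end, the density fell from 2.20 peaks per Mb at 10 to 20 kb (exact 95% interval 1.85 to 2.59) to 1.63 at 50 to 100 kb (1.40 to 1.88) and 0.893 beyond 200 kb (0.754 to 1.05). Of the 143 peaks at 10 to 20 kb, 58 lay within 1 kb of a listed start. Away from listed starts the densities were 1.32, 1.23, 1.2 and 1.27 in the bins up to 200 kb, with overlapping intervals, and 0.784 beyond (0.654 to 0.933). The interior near the 5′ end, apart from annotated starts, was not denser than positions up to 200 kb in. Positions beyond 200 kb exist only in long genes, where peaks were sparser, so these bins do not separate distance from gene length. Over equal parts of the gene from start to end, the densities were 1.47, 1.65, 1.39, 1.68 and 1.23 per Mb. Their intervals overlapped, and there was no steady fall. Exons and introns were not resolved here.

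Most hosts had a single peak. Of the 871, 713 held 1 peak, 123 held 2, 29 held 3 and 5 held 4. Sox5, which encodes a SoxD transcription factor, was the sole host with 5. In all, 158 genes (1.61% of those with deep sequence) held at least 2. Length accounts for much of such counts, so each gene was set against the number expected from its deep sequence at the overall density. For Sox5, with 911 kb of deep sequence, 1.34 peaks were expected, a ratio of 3.74 (exact Poisson 95% interval 1.22 to 8.74). Its peaks lay 123, 192, 527, 573 and 678 kb into the gene, and none was at its listed start. In Adgrl3, an adhesion receptor gene of the latrophilin family, 4 peaks stood against 1.16 expected (3.46, interval 0.942 to 8.86), all between 377 and 603 kb into the gene. In Camta1, a calmodulin-binding transcription activator gene, 3 of the 4 peaks lay at 722 to 754 kb, near the far end of the gene (ratio 3.74, interval 1.02 to 9.57). All of these 3 genes have over 500 kb of deep sequence, where peaks are sparser. At the density of that length class the ratios were 7.48 (2.43 to 17.5) for Sox5, 6.91 (1.88 to 17.7) for Adgrl3 and 7.47 (2.03 to 19.1) for Camta1. The interval for Adgrl3 included 1 at the overall density and did not at that of its length class. All hosts with 4 or 5 peaks were named for these counts, so their ratios and intervals are a description. An interval above 1 is not evidence in genes picked in this way.

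Snd1, Fto and Chd9 also held 4 peaks each, in shorter bodies. Chd9, a chromodomain helicase gene with 206 kb of deep sequence, had a ratio of 13.2 (interval 3.6 to 33.9), with peaks 49.2, 80.0, 80.8 and 127 kb into the gene. Fto, an RNA demethylase gene whose introns are known to hold regulatory elements of the neighbouring Irx3, had a ratio of 8.24 (2.25 to 21.1), with peaks at 81.7, 164, 192 and 280 kb. The ratio for Snd1, which encodes a Tudor domain RNA-binding protein, was 6.64 (1.81 to 17.0). At the density of their length class, the ratios of Fto and Snd1 were 9.04 and 7.28, and that of Chd9 had an interval of 3.95 to 37.2. None of these 12 peaks lay within 1 kb of a listed start, and Fto was the only one of the 3 with a peak at its own start.

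The highest ratios among hosts with at least 3 peaks, at the overall density, were those of shorter genes. Nemp2, a nuclear envelope protein gene, had a ratio of 33.3 (interval 6.87 to 97.4), and Larp1, a regulator of the translation of ribosomal protein mRNAs, had 31.7 (6.53 to 92.6). Rbpj, the DNA-binding factor of Notch signalling, reached 25.1 (5.17 to 73.2), and Sertad2, a transcriptional coregulator gene, 22.8 (4.70 to 66.6). Dpysl3, a cytoskeletal regulator gene, had 21.0, the corepressor gene Bcor 20.5 and the estrogen-responsive gene Greb1 18.5 (3.81 to 54.0). Chd9, given above, came next, then Abr with 11, the Hippo pathway transcription factor gene Tead1 with 9.86, Fto, and Vps13d, which encodes a lipid transfer protein, with 7.97. These genes were ranked on the counts themselves, so their ratios are a description. At the density of the length class, the ratios of these 10 genes other than Chd9 and Fto ran from 8.74 for Vps13d to 25.8 for Nemp2. In Nemp2, Larp1, Rbpj, Sertad2, Greb1 and Abr, 10 of the 18 peaks lay within 1 kb of a listed start, whereas none of those of Bcor or Vps13d did. Dpysl3 and Tead1 are not in the start table.

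**Figure D4:**
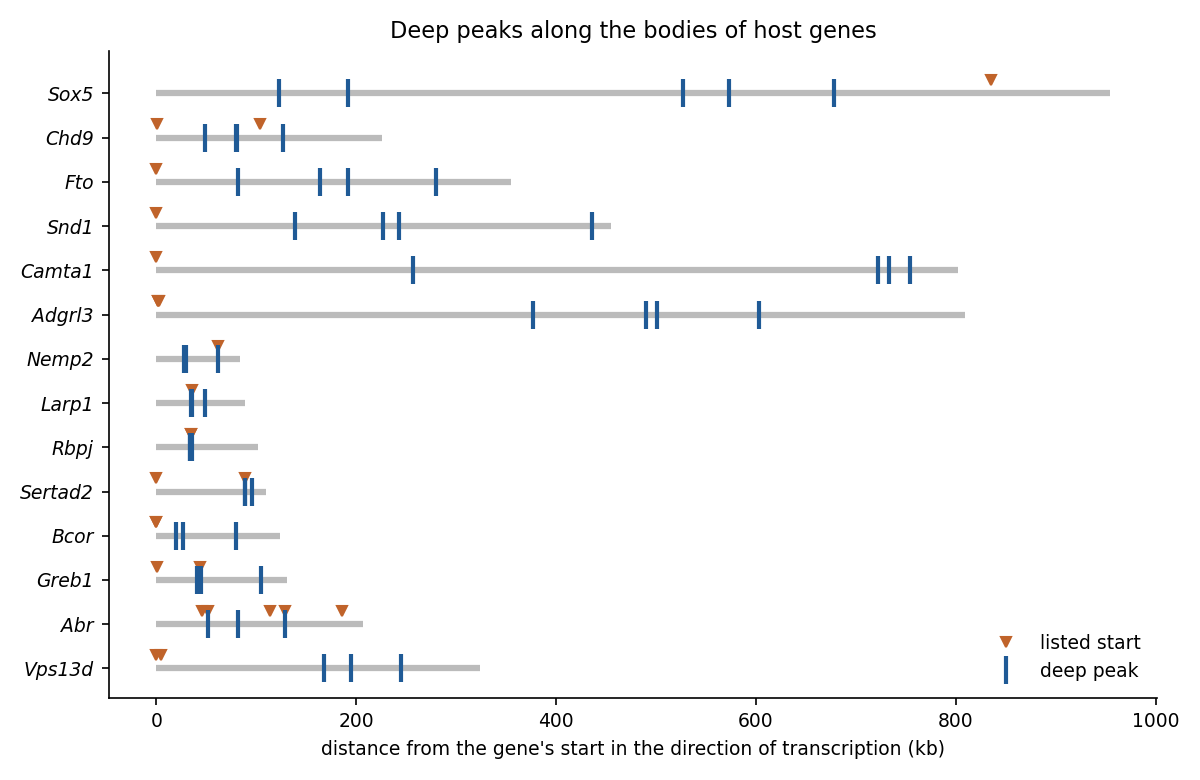
Peaks deep inside genes (bars) along the bodies of the hosts with the most peaks or the highest ratios whose strand is known, in kb from the gene's start, with listed transcription starts (triangles). In Larp1, Rbpj and Sertad2 peaks crowd at an internal start, whereas the 5 peaks of Sox5 are spread over 123 to 678 kb.

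Some peaks of a host lay very close together, and several such pairs flanked a start. The 158 hosts with several peaks gave 200 neighbouring pairs at a median distance of 46.1 kb (95% interval of the median 29.9 to 57.3 kb), and 23 pairs were within 1 kb. In hosts of the start table, 24 pairs were within 1500 bp. In 8 of these a listed start lay between the centres, and in 12 both centres were within 1 kb of a listed start. Larp1 had peaks at -448 and 539 bp from a start 35.6 kb into the gene, with 61 CpG. Sertad2 had peaks at -437 and 248 bp from a start 88.8 kb in. In Rbpj the pair was at -361 and 655 bp from the nearest of its starts, 34.6 and 34.7 kb in. In other close pairs, such as those of Chd9 (834 bp apart), Rora (841 bp) and Runx2 (1010 bp), no listed start lay between the peaks.

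Hosts and other genes had a peak at their own border in shares that lay close together. Of all genes with deep sequence, 46.0% had a peak within 1 kb of either border. Among hosts the share was 44.2% (385 of 871, exact 95% interval 40.9 to 47.6%), and among the other genes it was 46.2% (4136 of 8948, 45.2 to 47.3%). The intervals of hosts and other genes also overlapped in every length class. Where strand was known, the peak at the border of hosts was nearly always at the start, in 304 of 694 hosts (43.8%), and at the end in 7 (1.01%).

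Genes of the ovary and of signalling pathways were taken from 24 lists. Of their 637 genes, 479 had deep sequence and 92 of these were hosts, against 8.87% of all genes with deep sequence. List genes were often long, so peaks were also set against the number expected at the density of genes of the same length class. Among pregranulosa genes, 3 of 10 were hosts (30.0%, exact 95% interval 6.67 to 65.2%), with 3 peaks against 1.01 expected (ratio 2.96, interval 0.611 to 8.65). These were Runx1, the GATA factor gene Gata4 (peak 23.9 kb from the nearer border, chr14:63222681-63222980) and Kitl, the ligand of the KIT receptor of oocytes (16.2 kb into the gene, chr10:100031684-100031983). Foxl2 itself, a gene of 2520 bp, has no deep sequence and cannot hold such a peak.

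In the later granulosa and follicle list, 2 of 18 genes were hosts. Greb1 had 3 peaks, 40.8, 45.1 and 105 kb into the gene, and Esr2, which encodes estrogen receptor beta, had 1 at 24.6 kb (4 peaks against 2.18 expected). Of the early gonad genes only Igf1r, the IGF receptor gene, was a host, 1 of 13, with a peak 177 kb in (1 peak against 1.96 expected). None of 11 Sertoli genes was a host (exact 95% interval 0 to 28.5%), and their deep sequence gave 1.24 expected peaks. None of 13 germ cell genes was a host either (0 to 24.7%), with 1.23 expected. At these expected numbers a count of 0 does not set either list apart. The interstitial and steroid-producing list had 1 host of 8 genes, the hedgehog receptor gene Ptch1, and the endothelial and blood list had 2 of 17, Flt1 and Ets1.

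Among signalling pathways, 8 of 44 WNT genes were hosts (18.2%, exact 95% interval 8.19 to 32.7%), with 9 peaks against 5.62 expected (ratio 1.60, interval 0.733 to 3.04). They included the R-spondin receptor genes Lgr4 (62.0 kb into the gene) and Lgr6 (32.0 and 72.5 kb), and the transcription factor gene Tcf7l1 (66.6 kb). The ligand gene Wnt5b had a peak 534 bp downstream of a start 95.4 kb into the gene. In the insulin, IGF and PI3K list 4 of 24 genes were hosts (ratio 1.71), among them Irs1, an insulin receptor substrate gene with 2 peaks in 38.3 kb of deep sequence. For TGF-beta and BMP genes the count was 2 of 33, Smad1 with 2 peaks, 27.6 and 38.1 kb in, and Ltbp1 with 1. These 3 peaks stood against 4.15 expected (ratio 0.722, interval 0.149 to 2.11). Notch genes gave 2 of 18, Rbpj and the coactivator gene Maml3 with 3 peaks each (6 against 2.30 expected, ratio 2.61, interval 0.957 to 5.67). Hippo genes gave 2 of 17 (Tead1 and Amotl1, ratio 1.73), FGF, EGF and MAP kinase genes 3 of 25 (ratio 0.67), and hedgehog genes 1 of 11 (ratio 0.664). The interval of the ratio included 1 for every one of these pathway lists.

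Of the lists of transcriptional and chromatin regulators, 4 had an interval above 1 at the density of their length classes. This is a description, since all lists were drawn up with earlier results of these data known. The intervals also take no account of the number of lists, 24, and treat peaks that share a gene as independent. In the list of nuclear factor I, TCF and ZEB type factors, 17 of 38 genes were hosts (44.7%, exact 95% interval 28.6 to 61.7%), with 30 peaks against 10.5 expected (ratio 2.85, interval 1.92 to 4.06). Camta1 (4 peaks), Maml3 and Zfhx3 (3 each) and Ebf3, Hivep2 and Nfib (2 each) led it. The list is broader than its name. Of its hosts, only Nfia, Nfib, Nfix and Tcf4 are nuclear factor I or TCF genes, and neither Zeb1 nor Zeb2 was a host. Maml3 was also counted among the Notch genes. Camta1, Hivep2 and Maml3 were known from earlier results of these data when the list was drawn up, so the list is not independent evidence. Chromatin regulators had 12 hosts of 51 (23.5%, 12.8 to 37.5%) and 17 peaks against 7.69 expected (2.21, 1.29 to 3.54), led by Chd9 and by Arid5b and Arid1b with 2 each. Of 4 Sox genes with deep sequence, Sox5 and Sox6 were hosts (6 peaks, 5 of them in Sox5, ratio 5.2, 1.91 to 11.3), and Sox5 too was known beforehand. Forkhead genes had 3 hosts of 13, Foxp1 with 3 peaks, Foxk1 with 2 and Foxp4 with 1 (ratio 3.15, 1.16 to 6.86). At the overall density in place of that of the length class, the intervals of the Sox list (1.0 to 5.95) and the forkhead list (0.852 to 5.05) reached 1.

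Runx, Gata and FOG genes had 3 hosts of 12, with Runx2 (3 peaks) besides Runx1 and Gata4. Nuclear receptor genes had 5 of 31: Rora with 3 peaks, Rarb and the glucocorticoid receptor gene Nr3c1 with 2, and Thra and Esr2 with 1 (9 peaks against 5.43 expected). None of 8 TALE homeobox genes was a host (1.72 expected). Cell adhesion and matrix genes had 10 hosts of 41, with a ratio of 1.17 (interval 0.623 to 2.0). Latrophilins, teneurins and FLRTs had 4 of 10, Adgrl3 and Tenm2 to Tenm4, with a ratio of 2.35 (1.13 to 4.31), which was 1.31 (0.626 to 2.40) at the overall density, and Adgrl3 was known from earlier results of these data.

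Neuronal and synaptic genes with long bodies show why length matters. Of 47 such genes, 11 were hosts (23.4%, exact 95% interval 12.3 to 38.0%), a larger share than the 8.87% of all genes with deep sequence. Yet they held only 14 peaks in 46.5 Mb, against 68.2 expected at the overall density (ratio 0.205, interval 0.112 to 0.344) and 36.1 at that of their length classes (0.388, 0.212 to 0.651). The longest genes without any peak deep inside were Dmd (2390 kb, 3.37 expected at the overall density), Ptprd, Lsamp, Lrp1b, Dlg2, Macrod2, Nrxn3, Fhit, Csmd1 and Rbfox1. Of these 10, the genes Dlg2, Macrod2 and Fhit had a peak at a border.

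**Figure D5:**
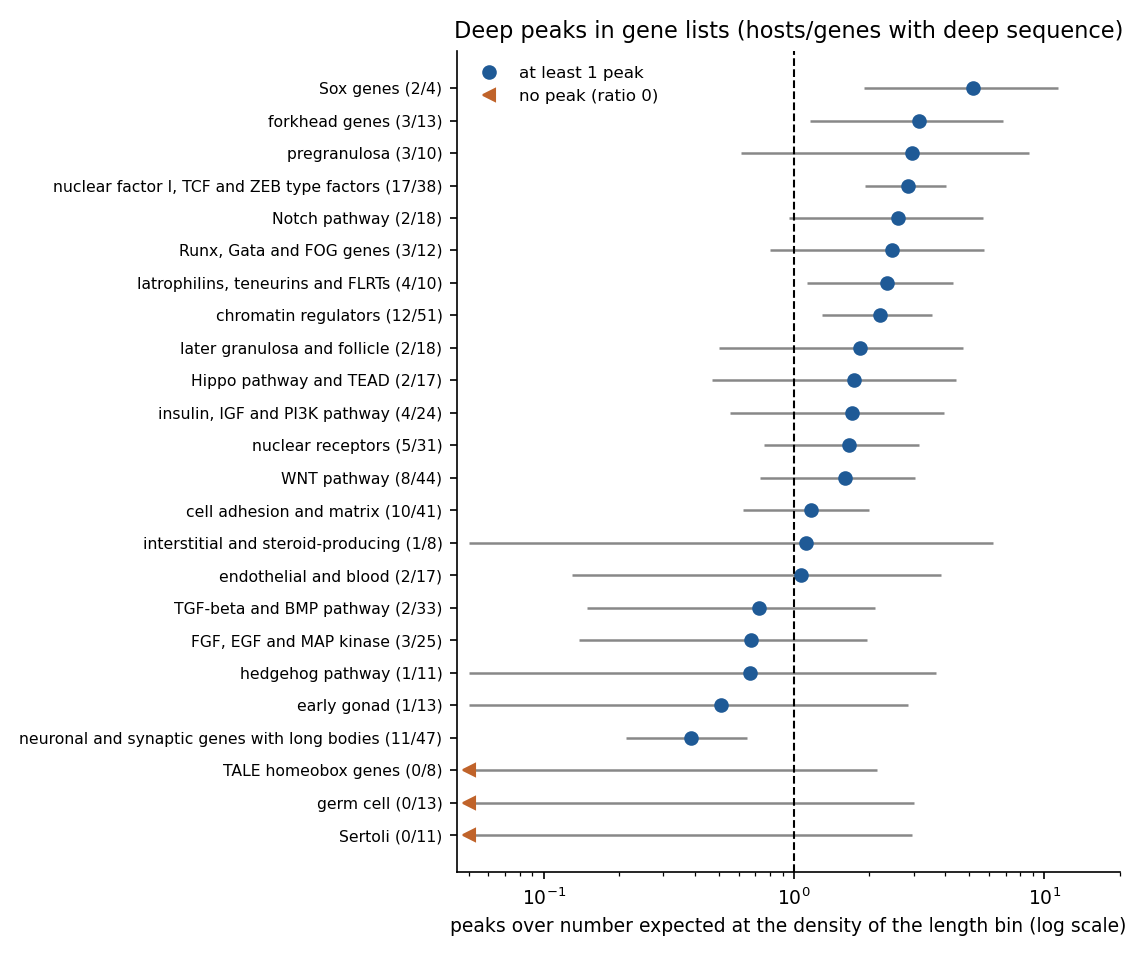
Number of deep peaks over the number expected from the deep sequence at the density of genes of the same length class, for 24 gene lists on a log scale, with exact 95% Poisson intervals that are cut at the left edge of the axis, where lists without a peak (triangles) are drawn. The neuronal list lies lowest among lists with a peak, at 0.388, and the list of nuclear factor I, TCF and ZEB type factors lies at 2.85.

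By chromosome, the density on the autosomes ran from 1.07 peaks per Mb of deep sequence on chromosome 3 to 2.01 on chromosome 11, with a median of 1.53. Chromosome X had 14 peaks in 33.2 Mb, or 0.422 per Mb (exact Poisson 95% interval 0.231 to 0.708), below every autosome, and Bcor alone held 3 of them. Peaks deep inside genes made up 4.52% of the FOXL2 peaks on chromosome X and between 6.67 and 13.4% of those on each autosome.

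At the limit of the rule, peak numbers were alike on both sides. Inside genes, 44 peaks were centred 9 to 10 kb from the nearest protein-coding border and 45 at 10 to 11 kb, of which 43 were also far enough from lncRNA borders. The members nearest to the limit lay in Usp10 (10004 bp), Wiz (10028 bp) and Lpcat3 (10048 bp). Just short of it, peaks lay in Map3k1 (9961 bp) and Tmpo (9941 bp).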

How the data were processed

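FOXL2 ChIP-seq peaks of 2 ChIP and 2 input samples were analysed as the authors deposited them: start and end in bp in 1 list for both ChIP samples, on mm10. Bowtie 1.2, Picard 1.110, bedtools 2.24.0 and HOMER 4.9 were used, per the submitters' processing notes; their roles, the peak threshold and the use of inputs and replicates are not stated in the labels or headers, and they set how many peaks there are. Peaks off chromosomes 1 to 19 and X (4) were left out.

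Members and deep sequence were computed in Python 3.11.15 (pandas 2.3.3, scipy 1.17.1) from RefSeq gene borders, and starts, strand and start sequences came from RefSeq promoters of GRCm38.p6. Some genes are not in that table. Shares have exact binomial and densities exact Poisson 95% intervals. No test between samples was possible. The counting was checked on simulated data. Members and gene lists were chosen with earlier results of these data known; analyses of starts, CpG and sequence matches were added after the data were examined. Named genes were the 15 hosts with most peaks, the 12 with the highest ratio among those with at least 3, up to 6 hosts per list, the 10 longest without a peak, those at the limit of the rule, and Foxl2; except that some items are not reported here; others illustrate internal starts and were chosen after their values were seen.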

Additional observations from a re-analysis of the deposited data

How the results depend on the processing

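Of the recomputed values, 64 stayed within 1.5 times the reported count or within the reported 95% interval, and 10 did not. The density of deep peaks relative to all peaks, 0.335, was 0.363 at 5 kb from protein-coding borders, 0.307 at 20 kb, 0.357 with no condition on lncRNA borders and 0.265 without sequence within 1 kb of listed starts. That last setting, added after the data were examined, also lowered the ratio of the density at 10 to 20 kb from the gene's start to that beyond 200 kb, from 2.46 to 1.68. The density in genes with up to 100 kb of deep sequence was 2.65 times that in genes with over 500 kb, and 1.77 times in genes of the start table without sequence within 1 kb of listed starts, also added later. The share of peaks within 1 kb of a listed start of the host, 26.3%, was 31.9% at 5 kb from borders and 22.5% when 500 bp was used in place of 1 kb. Hosts with a peak at their own border, 44.2%, made up 39.9% at 5 kb from borders. The median spacing, 46.1 kb, was 59.1 kb when peaks of a host within 5 kb were merged. The cause was not tested, beyond what each setting changes by construction. The number of peaks ran from 775 to 1339 and that of hosts from 613 to 1125 over the settings of 20 and 5 kb. At 20 kb the ratio by distance from the start has no value, since its first bin is empty of deep sequence.

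No paired analysis was possible because the deposited list combines both ChIP samples, and for the same reason no replicate was left out. Depth is unknown, so occupancy too weak to pass the peak calling is not distinguished from none.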
